A study of Mus musculus with 18 samples.

Results

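The 31 genes described here rose strongly in mouse myoblasts with either of 2 double-homeobox transcription factors, mouse Dux and human DUX4. They were chosen from a table of 24028 genes by their CPM (a gene's count scaled to a fixed total per library). A member had a ratio of the induced to the uninduced group mean of at least 4 in both the mouse Dux and the human DUX4 line, after 0.5 CPM was added to each mean. Its ratio in the luciferase line was under 1.5, and its induced mean was at least 2 CPM in both factor lines. Of 41 genes that met these limits, 10 were left out by name (Pramef25, Tmem92 and genes with provisional names), and 31 stayed. All 31 passed the filter on low counts. These values chose the genes, so the rises themselves are given as a description, with no test.

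The series measured polyadenylated RNA in C2C12, a line of mouse muscle precursor cells, with 18 libraries, 3 cultures grown apart for each of 6 groups. Of the 3 clonal lines each carried one codon-altered or reporter transgene under doxycycline control (mouse Dux, human DUX4 or firefly luciferase) and was kept under puromycin selection. Doxycycline was given at 2 µg/ml for 36 h to induce, and the matching uninduced cultures were harvested at 36 h without it. Each transgene is present in 1 clone, so line, clone and transgene cannot be told apart.

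Dux and DUX4 are normally active for a short time in the cleavage embryo, where they turn on the first wave of embryonic genes. DUX4 that escapes silencing in adult skeletal muscle causes facioscapulohumeral dystrophy and is toxic to muscle cells. The DNA-binding homeodomains of the mouse and the human protein differ in sequence, so which genes answer to both is a question of how far the network is shared.

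Total counts ran from 11010586 to 17179642 per library. Induced mouse Dux replicate 1 stood apart from the other 2 of its group: the chi-square per degree of freedom between libraries was 32.1 and 34.3 against it and 2.08 between the others. Uninduced mouse Dux replicate 1 gave 4.96 and 5.04 against its group, and all other pairs in the series lay between 1.25 and 2.7. Myoblast markers were detected in every group, except Pax7, which was at 0 CPM in induced human DUX4 libraries. The summed level of the markers (10 genes) was 3322 to 3366 CPM in uninduced luciferase libraries, 1778 to 1843 in uninduced mouse Dux libraries and 854 to 892 in uninduced human DUX4 libraries. Induced libraries held 2583 to 2689, 1392 to 1489 and 525 to 542 CPM in the same order of lines. Msc was at or below 0.265 CPM in every group mean, Pax7 was above 1 CPM in the mouse Dux line alone, and Myog was above 100 CPM in the luciferase line and at most 2.47 CPM in the others. Myf5 was at 105 CPM uninduced and 83.1 CPM induced in the luciferase line. It was at 0.276 and 0.0393 CPM in the mouse Dux line and 7.14 and 8.78 CPM in the human DUX4 line. Myod1, at 196 and 152 CPM in the luciferase line, was at 131 and 79.3 CPM with mouse Dux and 26.8 and 3.66 CPM with human DUX4. The 20 markers of other cell types summed to 38.0 to 63.7 CPM over the libraries, with Cd3e at 0 throughout, but single markers moved with the groups. The macrophage marker Cd68 went from 1.78 to 20.7 CPM in the human DUX4 line and from 1.32 to 2.19 CPM in the mouse Dux line, and the endothelial marker Cdh5 was at 23.8 and 25.5 CPM in the luciferase groups and at most 0.13 CPM in the others. In bulk RNA, fewer cells of a type and less RNA per cell cannot be told apart.

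To show the letters in front of these genes, the 250 bases before the start site are printed for the highest-ranked members that had an entry in the RefSeq promoter table (GRCm38.p6). The 5 letters AATCA, part of the tandem site that double-homeobox factors are known to bind, or their reverse complement TGATT, are in capitals. All run 5′ to 3′ on the strand of the gene. Fcgbp lies on the plus strand and its window is chr7:28070986-28071235. Plk3 lies on the minus strand, at chr4:117133964-117134213, and Gal3st2 on the plus strand, at chr1:93861094-93861343.
Fcgbp: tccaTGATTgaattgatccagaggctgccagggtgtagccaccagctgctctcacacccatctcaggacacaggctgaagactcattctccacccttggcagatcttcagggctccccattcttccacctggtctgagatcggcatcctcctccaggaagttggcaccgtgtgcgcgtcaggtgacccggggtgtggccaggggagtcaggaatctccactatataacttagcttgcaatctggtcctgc
Plk3: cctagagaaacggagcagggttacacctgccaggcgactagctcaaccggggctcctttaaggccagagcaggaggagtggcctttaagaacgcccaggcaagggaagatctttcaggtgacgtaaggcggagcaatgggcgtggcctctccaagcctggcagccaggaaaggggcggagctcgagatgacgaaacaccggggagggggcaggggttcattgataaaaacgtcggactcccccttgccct
Gal3st2: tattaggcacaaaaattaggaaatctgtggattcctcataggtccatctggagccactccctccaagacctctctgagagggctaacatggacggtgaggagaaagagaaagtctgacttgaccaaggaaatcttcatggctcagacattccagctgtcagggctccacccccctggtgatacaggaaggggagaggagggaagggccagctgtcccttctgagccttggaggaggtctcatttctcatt
The Fcgbp stretch held 1 match and the other 2 held none. Windows that also cover the 50 bases after the start were found for 20 of the 31 members, 23 windows in all. Neither strand of any of them held a tandem motif, TAA and AATCA or TGA and AATCA with 3 free bases between. These were in 1.03% and 0.971% of all 32851 promoter windows. AATCA alone, searched on both strands and added after these results were seen, was in 6 of 23 member windows (26.1%) and in 37% of all windows; it is part of both tandem motifs. The member windows had a median GC content of 62%, against 52.67% over all windows. No match says only that these letters are not in these windows.

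The members are spread over the genome and none adjoins another. The closest were Ceacam1 and Cyp2s1 on chromosome 7, 324871 bases apart with 12 protein-coding genes between them. Some share exons or introns with other annotated genes: Plk3 with Tctex1d4, Samd10 with Prpf6, Prkg1 with Cstf2t, Milr1 with Polg2 and Fgf1 with Arhgap26, each on opposite strands. Tmsb15b2 overlaps Tmsb15l and Tmsb15b1 on its own strand, and Ceacam1 has a close copy in Ceacam2. No source used here says whether the counting used strand, so reads of these genes cannot be assigned to them alone with certainty.

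Every member had all 3 induced libraries above all 3 uninduced ones in both factor lines, as 22.5% of the 13602 tested genes did with mouse Dux and 35.6% with human DUX4. A ratio of 4 or more was reached by 3.48% of tested genes with mouse Dux and 2.57% with human DUX4. Of all genes deposited, 55 reached it in both, which is 11.6% of the 475 that did so with mouse Dux and 15.8% of the 349 that did so with human DUX4. Summed over the 31 members, the level went from 127 ± 3.72 CPM (SD, n = 3) to 1003 ± 52.5 in the mouse Dux line and from 394 ± 12.5 to 3226 ± 10.2 in the human DUX4 line. In the luciferase line it was 288 ± 6.36 without and 337 ± 8.41 with doxycycline. The summed rise was thus 7.92-fold with mouse Dux, 8.19-fold with human DUX4 and 1.17-fold with luciferase. The level it started from was higher in the human DUX4 line than in the mouse Dux line. These sums use raw library totals. With library size alone, the median log2 response of all tested genes was -0.249 with mouse Dux, -0.023 with human DUX4 and 0.012 with luciferase. Which summed rise is the larger is therefore not read from these values.

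**Figure D1:**
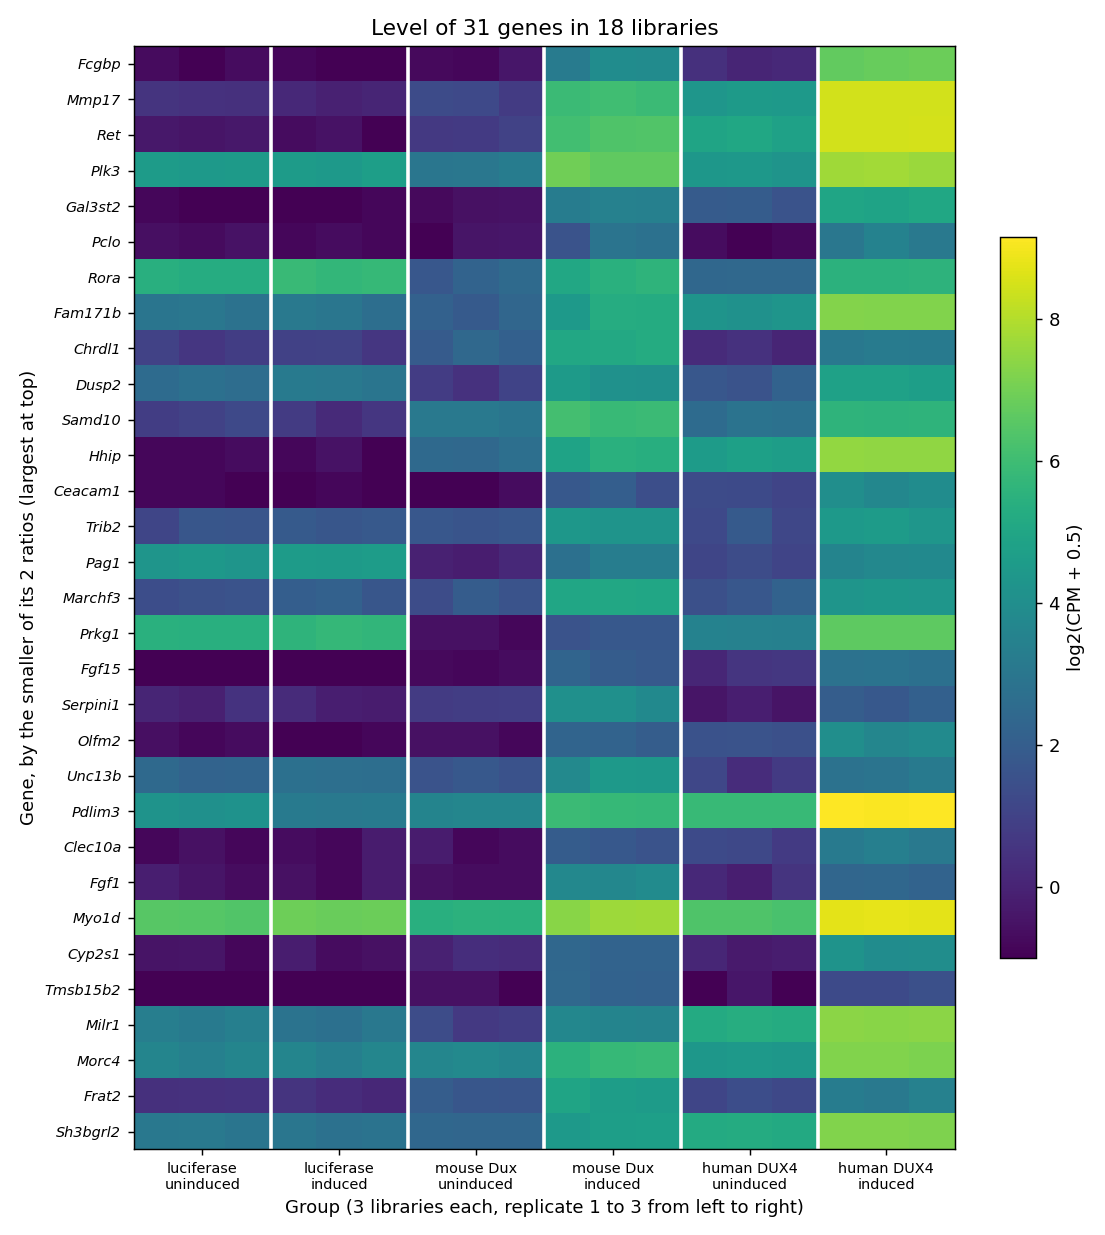
Level of each of the 31 genes (rows, ordered by the smaller of the 2 ratios) in each of the 18 libraries (columns, 3 per group), as log2(CPM + 0.5). Both induced factor groups are brighter than their uninduced partners in all 31 rows, and Myo1d, Prkg1, Rora, Plk3 and Pag1 are the brightest rows in the luciferase line.

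Fitted log2 fold changes came from the edgeR model over all 13602 genes and are given with the standard error (SE). The median over the members was 3.83 for the mouse Dux response (range 2.35 to 6.69) and 3.10 for the human DUX4 response (2.07 to 7.41). The median over all tested genes was -0.01 and 0 in turn. Rises passed an adjusted p of 0.05 in all 31 members in each line, as 34.1% of tested genes did with mouse Dux and 34.4% with human DUX4. The rule used both contrasts, so nothing is read from these counts.

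Fcgbp (chromosome 7, 28071236 to 28120862, GRCm38) ranked first. It encodes an IgG Fc-binding protein found with mucins on epithelial surfaces. In the mouse Dux line it measured 0.0908, 0.0617 and 0.272 CPM without and 8.96, 15.1 and 14.6 CPM with doxycycline. The human DUX4 line gave 0.826, 0.525 and 0.622 CPM uninduced and 104, 112 and 117 CPM induced. Neither pair of groups overlapped, and the luciferase libraries held at most 0.139 CPM. Induced mouse Dux replicate 1 was the low one of its 3. The fitted changes were 6.64 ± 0.35 with mouse Dux and 7.41 ± 0.20 with human DUX4.

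Among receptors and secreted signalling proteins, Ret (chromosome 6, 118151745 to 118197718) had the largest ratio with mouse Dux, 44.8. Ret is the receptor tyrosine kinase for ligands of the glial-derived neurotrophic factor family. It read 1.09, 1.17 and 1.5 CPM in uninduced and 66.7, 82.8 and 84.4 CPM in induced mouse Dux libraries. The human DUX4 line held 30.4, 32.5 and 27.7 CPM before induction and 354, 352 and 359 CPM after. Every uninduced human DUX4 library was above every uninduced mouse Dux library, and luciferase libraries had at most 0.291 CPM. The 2 fitted responses were 6.18 ± 0.14 and 3.59 ± 0.09.

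Hhip, a membrane protein that binds and dampens Hedgehog ligands, was close to absent in the luciferase line, at 0.0582, 0.0611 and 0.139 CPM without and 0.0632, 0.197 and 0 CPM with doxycycline. It was present in both factor lines before induction, at 5.0, 4.94 and 6.12 CPM (mouse Dux) and 23.1, 27 and 24.8 CPM (human DUX4). With doxycycline it reached 29, 43.4 and 40.8 CPM with mouse Dux, and with human DUX4 181, 179 and 175 CPM. No induced library overlapped an uninduced one. Chrdl1, a secreted antagonist of bone morphogenetic proteins, was one of 8 members with the higher induced level under mouse Dux: 35.3 ± 2.03 CPM (SD, n = 3) against 8.47 ± 0.431 with human DUX4, from 3.98 ± 0.817 and 0.699 ± 0.155.

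Both fibroblast growth factors among the members had few counts before induction. Fgf1, the broadly acting acidic form, measured 0.182, 0.123 and 0.136 CPM in uninduced and 13, 12.4 and 14.3 CPM in induced mouse Dux libraries. The human DUX4 line gave 0.635, 0.394 and 0.932 CPM uninduced and 4.58, 4.78 and 4.26 CPM induced. The induced level was therefore higher under mouse Dux, from a lower start. Fgf15, an intestinal hormone that restrains bile acid synthesis, had 0 counts in all 6 luciferase libraries. It held 0.0908, 0.0617 and 0.136 CPM before and 4.36, 3.34 and 3.08 CPM after mouse Dux, and 0.572, 0.984 and 1.09 CPM before and 6.52, 6.81 and 6.19 CPM after human DUX4. Against induced luciferase, whose 3 libraries together allow up to 3 counts, Fgf15 was at least 57.5-fold higher with mouse Dux and at least 103-fold higher with human DUX4. Frat2, which binds the kinase GSK-3 and favours Wnt signalling, rose from 3.01 ± 0.460 to 25.8 ± 3.46 CPM and from 1.87 ± 0.266 to 9.31 ± 1.3 CPM.

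Of the proteins known from immune cells and cell contacts, Ceacam1, an adhesion and inhibitory receptor, had 2 counts in all in the 3 uninduced mouse Dux libraries and 138 in the induced ones. That is a ratio of 61.7, with an exact (Clopper-Pearson) 95% interval of 16.8 to 515 that covers counting error only. In the human DUX4 line it went from 1.97, 1.9 and 1.63 to 15.7, 12.7 and 14.7 CPM. Milr1, an inhibitory receptor of mast cells, went from 2.09, 1.11 and 1.29 to 12.4, 11.7 and 11.3 CPM with mouse Dux and from 36.9, 39.4 and 37.4 to 167, 162 and 166 CPM with human DUX4. Its uninduced human DUX4 level was above its induced mouse Dux level in every library. Clec10a, a galactose-binding lectin of macrophages and dendritic cells, reached 2.97 ± 0.401 and 8.87 ± 1.01 CPM. Beside these genes, Cd68 also stood higher in the induced human DUX4 line, while the leukocyte marker Ptprc was at most 0.0682 CPM and the macrophage marker Adgre1 at most 0.0694 CPM in any group mean. The part of Cd68-expressing cells in these levels was not tested. Outside this group, Olfm2, a secreted olfactomedin-domain protein, reached 4.04 ± 0.439 and 14 ± 1.71 CPM.

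Regulators of phosphorylation formed another group. Plk3 (chromosome 4, 117128655 to 117133963), a polo-like kinase of the stress response, measured 7.54, 7.59 and 9.24 CPM without and 124, 103 and 103 CPM with mouse Dux. In the human DUX4 line it read 20.4, 20.7 and 18.7 CPM uninduced and 211, 214 and 199 CPM induced, with 23.2, 21.8 and 22.5 CPM without and 23.1, 21.5 and 25.3 CPM with doxycycline in the luciferase line. Per kilobase of exon it was the most abundant member in induced mouse Dux libraries, at 43.5 CPM per kb, ahead of Myo1d at 29.7. Dusp2, a nuclear phosphatase that switches off MAP kinases, rose from 1.23 ± 0.351 to 18.8 ± 3.27 CPM and from 3.18 ± 0.827 to 26.9 ± 1.4 CPM. Trib2, a tribbles pseudokinase, reached 19.2 ± 0.727 and 21.6 ± 1.67 CPM from starts of 2.78 ± 0.169 and 2.23 ± 0.796, and the libraries of the 2 lines overlapped in each state.

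Prkg1 and Pag1 had their highest uninduced level in the luciferase line. Prkg1, the cyclic GMP-dependent protein kinase, held 43.6, 42.5 and 42.5 CPM in uninduced luciferase libraries. It had 0.182, 0.185 and 0.0680 CPM in uninduced and 2.54, 3.0 and 2.95 CPM in induced mouse Dux libraries. The human DUX4 line read 11, 10.4 and 10.1 CPM uninduced and 98.9, 98.9 and 101 CPM induced. A strong ratio with mouse Dux therefore left Prkg1 far below the luciferase level, while with human DUX4 it ended above. Pag1, a membrane adaptor that recruits the kinase Csk, went from 0.479 ± 0.123 to 8.26 ± 1.79 CPM and from 1.79 ± 0.265 to 12.7 ± 1.19 CPM, with 19.7 ± 1.06 in uninduced luciferase.

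The nuclear receptor Rora, known from circadian and metabolic control, showed the same feature. Its levels were 2.91, 4.2 and 5.23 CPM before and 33.6, 43.3 and 47.9 CPM after mouse Dux. With human DUX4 they were 4.76, 4.92 and 4.97 CPM uninduced and 45.4, 45.4 and 46.7 CPM induced. Luciferase libraries held 42.1, 39 and 39 CPM without and 58.1, 52.5 and 55.3 CPM with doxycycline, so the induced factor lines came up to the range of the luciferase line. Morc4, an ATPase of the MORC chromatin family, went from 12.4 ± 0.721 to 53.7 ± 6.62 CPM and from 20.8 ± 1.09 to 147 ± 5.4 CPM.

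**Figure D2:**
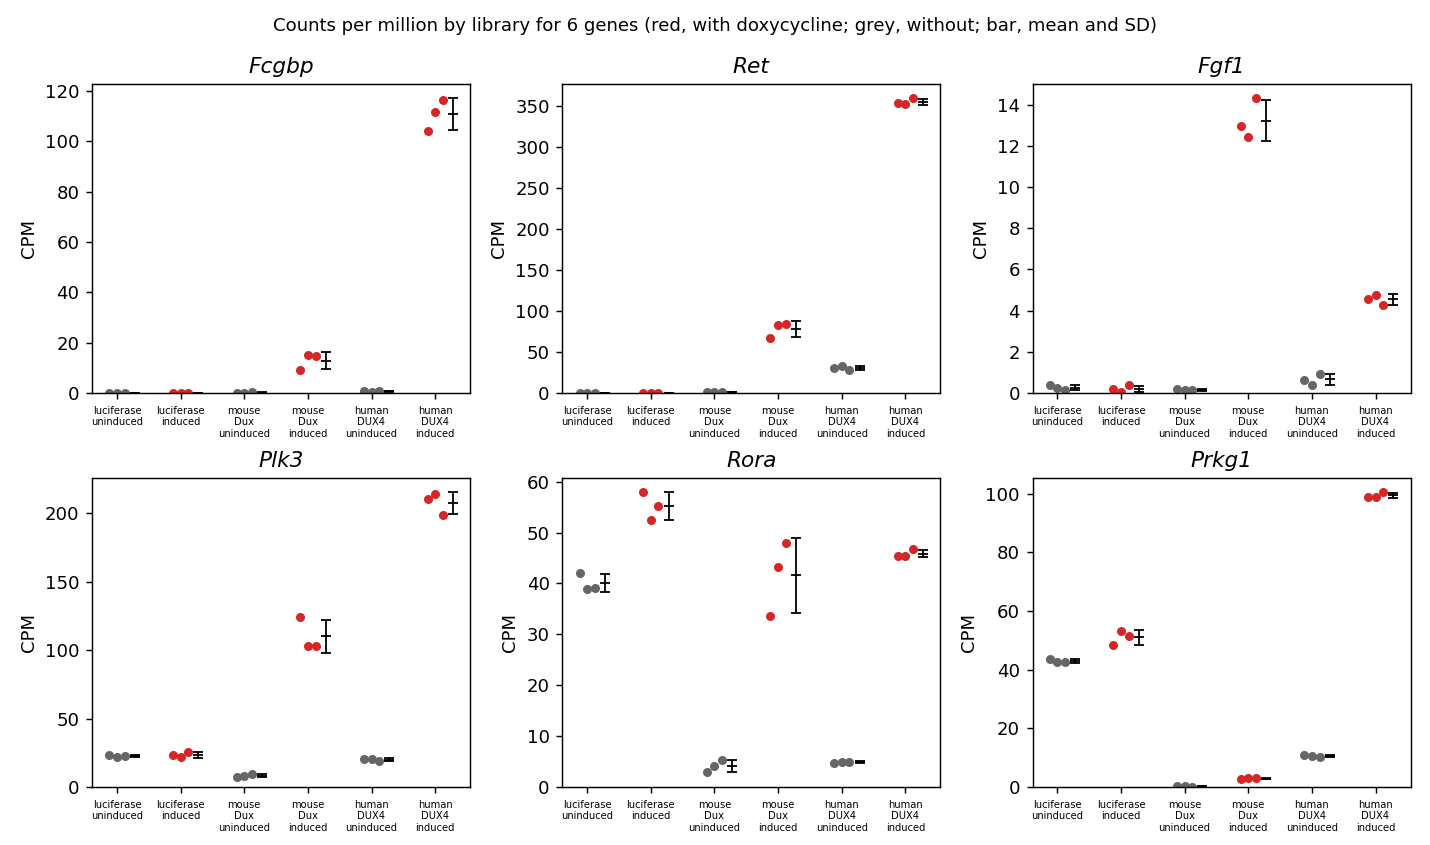
CPM in each library for 6 genes (red points, with doxycycline; grey points, without; black bar, mean and SD of 3 libraries), with an axis from 0 in each panel. Fcgbp, Ret and Plk3 are highest in induced human DUX4 libraries, Fgf1 in induced mouse Dux libraries, and Rora and Prkg1 are also high in the luciferase line.

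Pdlim3, Myo1d and Tmsb15b2 belong to the cytoskeleton. Pdlim3, a PDZ and LIM domain protein of the muscle Z-disc, reached 572, 556 and 563 CPM from 56.6, 56.8 and 56.6 with human DUX4. Its induced human DUX4 level of 109.5 CPM per kb of exon was the highest of the 31 in that group. With mouse Dux it went from 11.6, 12.2 and 12.2 to 59.9, 56 and 53.6 CPM. It moved the other way in the luciferase line, from 17.9, 16.8 and 17.6 to 8.73, 8.07 and 8.48 CPM, with no overlap. Myo1d, an unconventional class I myosin, went from 43.8 ± 1.6 to 192 ± 26.1 CPM and from 80 ± 4.68 to 436 ± 8.55 CPM. Tmsb15b2, a thymosin that binds actin monomers, had 0 counts in all luciferase libraries and reached 4.29 ± 0.480 CPM with mouse Dux and 2.03 ± 0.199 with human DUX4.

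Among enzymes, Mmp17 (chromosome 5, 129584169 to 129611099), a membrane-anchored matrix metalloproteinase, measured 2.0, 1.85 and 1.22 CPM before and 61.1, 65 and 59.7 CPM after mouse Dux. The human DUX4 line gave 19.6, 22.7 and 21.2 CPM uninduced and 356, 349 and 355 CPM induced, and luciferase libraries stayed under 1 CPM. Gal3st2 (chromosome 1, 93861306 to 93876494), which adds sulfate to galactose on glycans, read 0.0908, 0.185 and 0.204 CPM uninduced and 9.26, 10.6 and 10.3 CPM induced with mouse Dux. With human DUX4 it read 3.24, 3.35 and 2.56 CPM uninduced and 30.7, 29.5 and 32.3 CPM induced. Like Ret, both were already higher in the uninduced human DUX4 line than in the uninduced mouse Dux line. Cyp2s1, a cytochrome P450, had the opposite order of ratios, 4.3 with mouse Dux and 17.8 with human DUX4: it went from 0.454, 0.740 and 0.680 to 4.72, 4.16 and 4.2 CPM and from 0.572, 0.328 and 0.388 to 18, 15.1 and 15.2 CPM. Marchf3, a membrane-bound ubiquitin ligase, reached 32.2 ± 1.01 and 19.8 ± 0.446 CPM.

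Another 3 members are known from nerve endings and secretion. Pclo encodes the presynaptic scaffold piccolo. It measured 0, 0.247 and 0.272 CPM before and 2.54, 7.09 and 6.37 CPM after mouse Dux, with replicate 1 the lowest in both states. With human DUX4 it had 3 counts in all before and 398 after, a ratio of 130.1 (exact 95% interval 44.2 to 634). Unc13b, which primes synaptic vesicles, reached 18.6 ± 4.67 and 7.31 ± 0.905 CPM, and Serpini1, the protease inhibitor neuroserpin, 15.5 ± 1.7 and 3.45 ± 0.399 CPM. The remaining members were Samd10 (61.9 ± 6.33 and 47.8 ± 0.763 CPM when induced), Fam171b (32.9 ± 9.47 and 151 ± 2.02) and Sh3bgrl2 (24.4 ± 2.43 and 149.5 ± 2.43), the mouse Dux value first in each.

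The rule asked for a rise in each line and set no condition on which was larger. The difference of the 2 responses was tested as an interaction in the edgeR model. The test used the same groups that chose the members, and the added 0.5 CPM asks a larger fitted rise of genes that start lower. The uninduced mean was higher in the human DUX4 line in 22 of 31 members, so the counts called describe the members. By the ratio of the rule, 20 were larger with mouse Dux and 11 with human DUX4, and no share over all tested genes was taken for this split. The mouse Dux response was larger in 16 of 31 members and the human DUX4 response in 3, and 12 were not called. Over all tested genes the shares were 32.9% and 32.3%. The median difference was 0.58 over the members and 0.02 over all tested genes. Without induced mouse Dux replicate 1 the counts were 20 and 3, with Fam171b, Hhip, Rora and Unc13b added.

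Fgf1 had the largest difference, 3.84 ± 0.53 (log2, SE; adjusted p = 2.92e-06). Of those with more than 3 counts in every factor group, Gal3st2 (2.72 ± 0.37, adjusted p = 2.69e-06), Ret (2.59 ± 0.20, adjusted p = 8.03e-10), Olfm2 (2.43 ± 0.43, adjusted p = 6.29e-05) and Fgf15 (2.43 ± 0.57, adjusted p = 0.00152) followed. Ceacam1 was fitted at 2.96, but with 2 counts in the uninduced mouse Dux group this value depends on the prior count, and it was 5.64 without uninduced mouse Dux replicate 3. Clec10a, with 7 counts in that group, differed by 1.86 and ran from 1.40 to 2.59 over the alternatives. Both growth factors and the receptor Ret were thus among the members with larger mouse Dux responses.

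The other members called higher with mouse Dux had differences of 1.47 (Pag1), 1.35 (Mmp17), 1.18 (Prkg1), 1.12 (Milr1), 1.06 (Marchf3), 1.05 (Dusp2), 1.02 (Frat2), 0.58 (Plk3) and 0.58 (Sh3bgrl2). The call for Prkg1 was lost without uninduced mouse Dux replicate 3, where its difference was 0.84 (edgeR adjusted p = 0.183). Prkg1 had 6 counts in the uninduced mouse Dux group, and by the ratio of the rule, which adds 0.5 CPM, its order was the opposite, 5.16 with mouse Dux and 9.08 with human DUX4. The ratios of Ceacam1 were 6.33 and 6.37. Toward human DUX4, Cyp2s1 differed by -2.23 ± 0.41 (adjusted p = 8.8e-05), Pdlim3 by -0.88 ± 0.07 (adjusted p = 2.63e-09) and Morc4 by -0.51 ± 0.13 (adjusted p = 0.00138). The members not called had differences from -1.93 (Pclo) to 0.92 (Tmsb15b2), both with few counts and an SE above 1. Hhip (0.17 ± 0.19), Samd10 (0.23 ± 0.15), Rora (0.27 ± 0.22) and Fam171b (0.22 ± 0.26) had narrower errors around small differences.

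**Figure D3:**
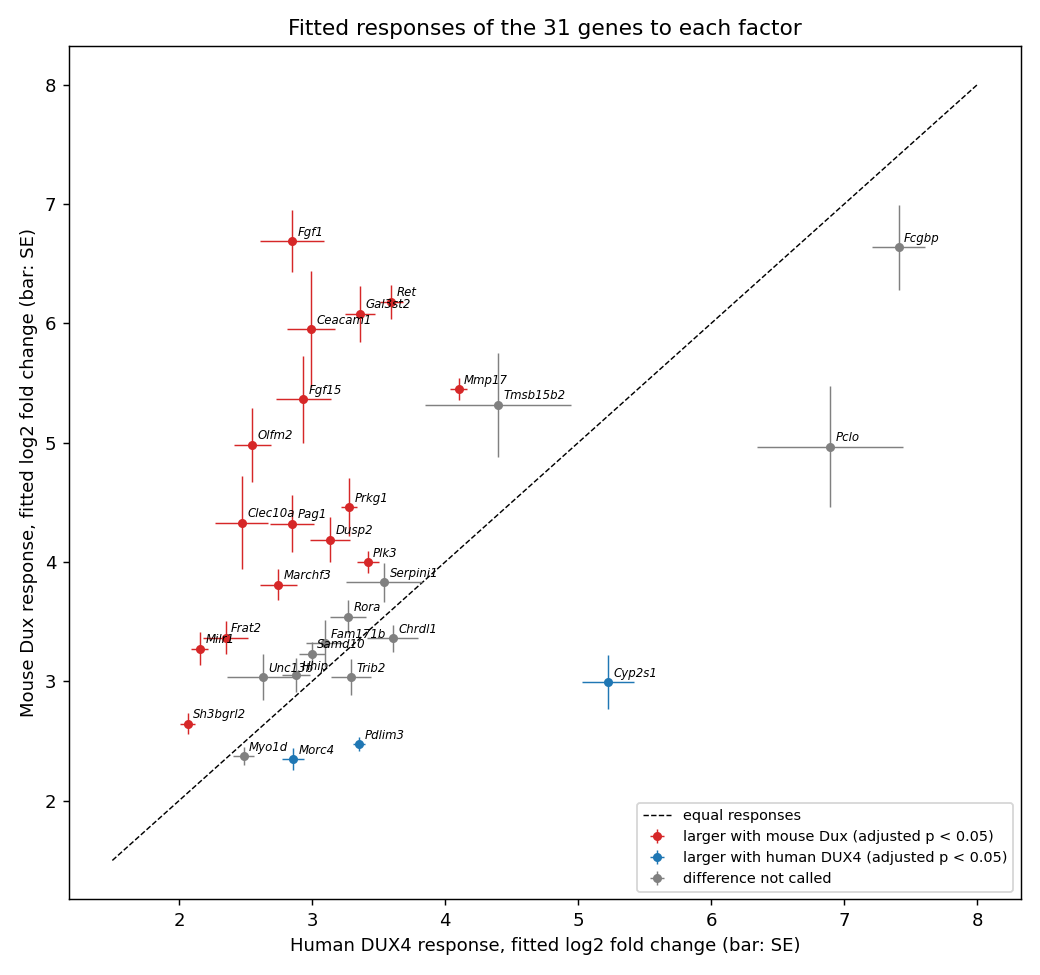
Fitted log2 fold change of each gene with human DUX4 (horizontal) and with mouse Dux (vertical), each with its SE, and a dashed line of equal responses. The 16 genes called larger with mouse Dux lie above the line, and Cyp2s1, Pdlim3 and Morc4, called larger with human DUX4, lie below it.

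Among the members, the order of the levels was another than that of the responses. The induced mean was higher in the human DUX4 line in 23 of 31 members, and the uninduced mean in 22 of 31. These means are CPM of the raw totals, and no share over all tested genes was taken for either count. Both counts therefore only describe the members. The uninduced levels were compared between lines in the same model. The rule ties each uninduced level to its own induced level and not to another line, though it favours genes that start low in the factor lines.

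In the uninduced human DUX4 line, 18 members were higher and 7 lower than in the uninduced luciferase line, against 36% and 37% of all tested genes. The median difference was 1.19, against -0.01 over all tested genes. The higher members included Hhip at 8.06 ± 0.31 (adjusted p = 1.45e-14) and Ret at 6.73 ± 0.20 (adjusted p = 2.39e-16). For Gal3st2, 135 counts stood against 1, which is 148-fold with an exact 95% interval from 26.1 to 5876, and Fgf15 had 38 counts against 0, at least 13.9-fold higher. Ceacam1 had 81 counts against 2, which is 44.3-fold with an exact 95% interval from 11.9 to 372. Mmp17 differed by 4.56, Olfm2 by 4.17, Sh3bgrl2 by 2.22, Milr1 by 1.99 and Pdlim3 by 1.67. The lower members were led by Pag1 at -3.47, Rora at -3.06, Prkg1 at -2.05 and Unc13b at -1.93. Calls for Cyp2s1 (1.15), Fgf1 (1.19) and Serpini1 (-1.03) were each lost without single libraries, for example without uninduced luciferase replicate 3 (edgeR adjusted p = 0.195, 0.0806 and 0.234), and for Cyp2s1 and Serpini1 also without uninduced human DUX4 replicate 1. DESeq2 did not call Cyp2s1 (adjusted p = 0.0801) or Serpini1 (adjusted p = 0.0559), and in edgeR the Cyp2s1 call was lost with median-of-ratios scaling (adjusted p = 0.0511) and with no filter on low counts (adjusted p = 0.0627).

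In the uninduced mouse Dux line, 10 members were higher and 11 lower than in uninduced luciferase, near the 32.2% and 33.1% of all tested genes. The median was 0.10. Higher members included Hhip at 5.79 ± 0.46 (adjusted p = 1.24e-09), Samd10 at 2.25, Ret at 2.10, Frat2 at 1.70 and Chrdl1 at 1.56. Lower members included Prkg1 at -8.23 ± 0.13 (adjusted p = 9.4e-20), Pag1 at -5.43, Rora at -3.33, Milr1 at -2.78 and Dusp2 at -2.32. The calls for Fgf15 (4 counts against 0, at least 1.52-fold higher) and Gal3st2 (7 counts against 1, 8.01-fold with an exact 95% interval from 1.03 to 361) were lost without uninduced mouse Dux replicate 3 (edgeR adjusted p = 0.0837 and 0.0813) and without some luciferase libraries. Both were lost with DESeq2 (adjusted p = 0.0596 and 0.0553), and Gal3st2 also without uninduced mouse Dux replicate 2 (edgeR adjusted p = 0.0714).

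Set against each other, the uninduced mouse Dux line was lower than the uninduced human DUX4 line in 20 members and higher in 4, with 33.3% and 33.1% over all tested genes. The median was -1.96. Prkg1 (-6.18), Milr1 (-4.78), Ret (-4.63) and Gal3st2 (-4.19) were among the most lower, and Chrdl1 (2.45), Serpini1 (2.03), Unc13b (1.08) and Frat2 (0.60) were the higher ones. The call for Frat2 was lost without uninduced mouse Dux replicate 1 or human DUX4 replicate 1, and that for Fcgbp (-2.20) without uninduced mouse Dux replicate 2 or human DUX4 replicate 1. The 3 uninduced comparisons share groups and are not independent. The summed myoblast markers given above also differed between the uninduced lines, and their part in these differences was not tested.

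**Figure D4:**
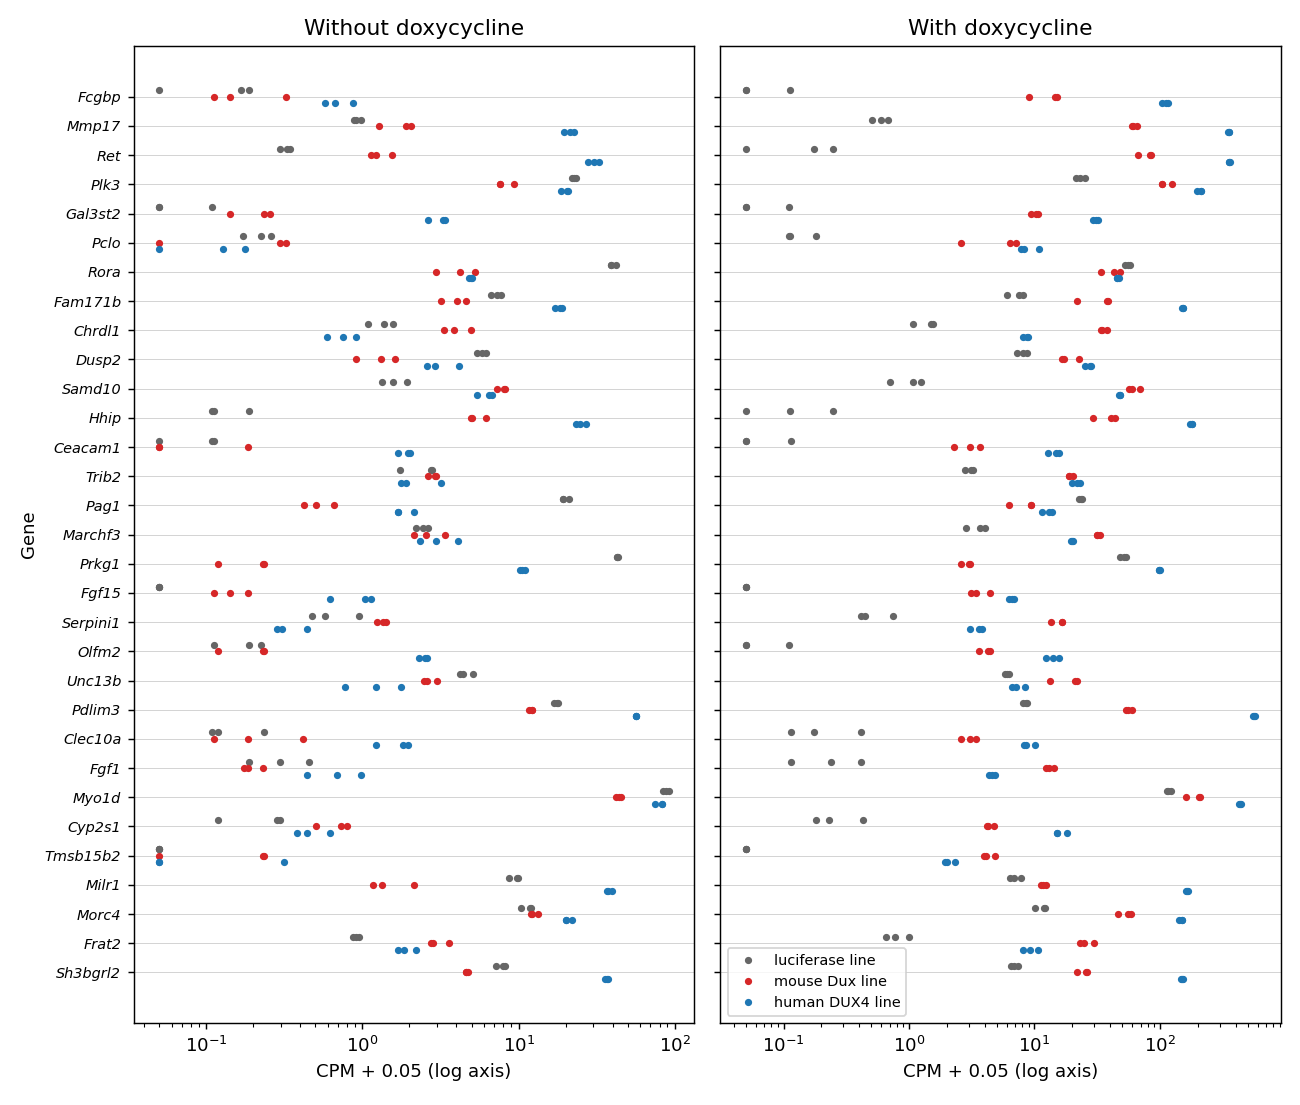
CPM + 0.05 of each gene on a log axis, without doxycycline (left) and with it (right), with 1 point per library and colours for the luciferase (grey), mouse Dux (red) and human DUX4 (blue) lines. Without doxycycline, Ret, Mmp17, Hhip, Gal3st2 and Sh3bgrl2 are highest in the human DUX4 line, whereas Rora, Pag1 and Prkg1 are highest in the luciferase line.

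With doxycycline in every line, a comparison added after the values were seen, 28 members were higher and 3 lower in the mouse Dux line than in the luciferase line (40.5% and 39.4% of all tested genes). In the human DUX4 line 28 were higher and 2 lower (39.1% and 39.8%). The rule favours high induced levels, so these counts describe the members. The exceptions were Prkg1, at -4.00 ± 0.08 with mouse Dux and 0.99 ± 0.05 with human DUX4, and Pag1, at -1.33 ± 0.11 and -0.85 ± 0.11. Rora was at -0.24 ± 0.10 and -0.24 ± 0.10. Its call was lost with mouse Dux without induced mouse Dux replicate 1 (-0.10, edgeR adjusted p = 0.162) or luciferase replicate 1 or 3, and with human DUX4 without any induced human DUX4 library or luciferase replicate 1 or 3. Unc13b was not called with human DUX4 (0.31 ± 0.19). For Fcgbp, 595 and 4955 counts stood against 1 in induced luciferase, which is 604-fold (exact 95% interval from 108 to 23890) and 5270-fold (from 945.5 to 208200).

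Doxycycline alone was bounded by the rule from above, not from below. In the luciferase line 5 members were called higher and 2 lower, against 14.7% and 16.4% of tested genes. The higher ones were Marchf3 (0.53), Dusp2 (0.45), Rora (0.45), Myo1d (0.40) and Prkg1 (0.24), and the lower ones Pdlim3 (-1.06) and Milr1 (-0.44). The rise of these lower members in each factor line was set by the rule.

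Over all tested genes, 34.1% rose and 34.8% fell with mouse Dux, and 34.4% rose and 33.1% fell with human DUX4. The families and pathways of some members are set beside these shares. Of 27 tested FGF and EGF family genes, 17 rose and 6 fell with mouse Dux (median 1.14, against -0.01 over all tested genes) and 11 rose and 6 fell with human DUX4 (median 0). Besides Fgf1 and Fgf15, the feedback inhibitor Spry4 changed by 3.83 ± 0.12 and 0.57 ± 0.14, and the receptor Fgfr3 by 2.21 ± 0.19 and -0.93 ± 0.20. The receptor Erbb3 rose with both, by 2.28 ± 0.41 and 2.65 ± 0.32, as did the ligand Fgf5 (edgeR adjusted p = 0.00972 and 5.31e-07), which had 0 counts in the uninduced mouse Dux libraries. Of 22 DUSP phosphatase genes, 10 rose and 6 fell with mouse Dux and 9 rose and 9 fell with human DUX4. Dusp4 (3.11 ± 0.08 and 1.41 ± 0.07) and Dusp6 (3.41 ± 0.09 and 1.15 ± 0.07) rose with both, while Dusp5 was at 2.90 ± 0.13 and -1.32 ± 0.19. Of 31 p53 target genes, Plk3 among them, 17 rose and 8 fell with mouse Dux and 19 rose and 10 fell with human DUX4. Cdkn1a, the cell cycle inhibitor, was at -1.47 ± 0.05 and 2.69 ± 0.05, and Pmaip1, which promotes cell death, at 7.23 ± 0.12 and -0.94 ± 0.14.

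Of 28 TGF-beta and BMP family genes, the pathway Chrdl1 acts on, 13 rose and 10 fell with mouse Dux and 8 rose and 12 fell with human DUX4. Of 25 Wnt pathway genes, the pathway of Frat2, 8 rose and 13 fell, then 6 rose and 13 fell. The antagonist Dkk2 rose with both, by 2.42 ± 0.08 and 4.61 ± 0.09. It met the other limits of the rule but not the limit on the luciferase line, where it also rose with doxycycline. The part of doxycycline alone in the Dkk2 rises was not tested. Of 35 cathepsin and serpin genes, Serpini1 among them, 14 rose and 13 fell, then 16 rose and 7 fell. Of 20 acetylcholine receptor and synapse genes, 6 rose and 9 fell with mouse Dux, and 9 rose and 6 fell with human DUX4. Of 30 sarcomere and contractile genes, 2 rose and 15 fell, then 6 rose and 10 fell. Neither of these last lists holds a member. No member was on the list of 2-cell-stage genes, but this was set by the names left out. Pramef25 and Tmem92 of that list met the limits of the rule in all lines and were left out by name. On that list 27 of 28 tested genes rose with mouse Dux and 10 with human DUX4.

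The members nearest the limits of the rule were Sh3bgrl2, Frat2 and Morc4, whose smaller ratios were 4.04, 4.14 and 4.19. Genes just outside included Ccno at 3.88 and Arhgap26 at 3.79. In the luciferase line Marchf3 (1.38), Rora (1.38) and Dusp2 (1.35) came closest, and Etv5 (1.52), Ptgs2 (1.52) and Pik3r5 (1.53) lay outside. For the induced mean, Tmsb15b2 (2.04 CPM), Prkg1 (2.83) and Ceacam1 (2.95) were inside, and Fam222a (1.97) and Ceacam2 (1.90) outside.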

How the data were processed

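The authors deposited whole-number read counts per gene, not normalized, with 1 column per library. The submitters' processing notes name the build mm10 and the tools TopHat2 2.0.12, Bowtie2 2.2.3 and CASAVA. How genes were counted, and whether by strand, is not given in the sources. Of 24028 genes, 5017 had no count. The table's symbols include 32 that were restored from gene identifiers or are missing (spreadsheet dates), 1 of them a member, Marchf3.

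The 31 members, the comparisons and the gene lists were chosen with earlier results of these data known. Members were picked from CPM of the raw totals. Tests used edgeR 4.0.16 (two-sided quasi-likelihood F test, TMM scaling, 6 group means over 18 libraries) in R 4.3.3 on 13602 genes kept by filterByExpr, with Benjamini-Hochberg adjustment over those genes and calls at 0.05. The SE is the fold change's size divided by the square root of F. P-values measure the spread between cultures of 1 clone, pooled over lines. With 0 counts in a group, a fold is a bound that sets 3 counts for the whole group; with 1 to 3 counts, it has an exact 95% interval. Intervals and bounds cover counting error only. With 40 or fewer members all could be named. Positions came from GENCODE vM21 (GRCm38). On simulated interactions in 13070 genes, 94% and 98% of changes of 1 and -1 (log2) and 100% of changes of 2 and -2 were recovered. There were 8 false calls. The changes were set in well-counted genes, with the same spread for all genes and no outlying library. The recovery therefore does not cover members with few counts. Alternatives were DESeq2 1.42.0, other scalings, no filter, fewer groups, a replicate block and each library left out.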

Additional observations from a re-analysis of the deposited data

Results flagged for a closer look

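For 19 of the 31 genes the 2 factors' responses differed by a test of the difference itself (the interaction in edgeR, adjusted p under 0.05; log2, mouse Dux minus human DUX4). The groups tested also chose the genes, and the 0.5 CPM added by the rule bears on the size of these differences. Signalling ligands and receptors had differences of 3.84 (Fgf1), 2.59 (Ret) and 2.43 (Fgf15), and Frat2 had 1.02. Surface proteins of immune cells and contacts had 2.96 (Ceacam1), 1.86 (Clec10a) and 1.12 (Milr1), and the secreted protein Olfm2 had 2.43. The Ceacam1 value rests on 2 counts in the uninduced mouse Dux group and ran from 2.34 to 5.64 over the alternatives. Its ratios by the rule were 6.33 with mouse Dux and 6.37 with human DUX4. Enzymes had 2.72 (Gal3st2), 1.35 (Mmp17), 1.06 (Marchf3) and, in the other direction, -2.23 (Cyp2s1). Kinases, phosphatases and adaptors had 1.47 (Pag1), 1.18 (Prkg1), 1.05 (Dusp2) and 0.58 (Plk3). The Prkg1 call was lost with DESeq2, with library size alone and without uninduced mouse Dux replicate 3. Its ratios by the rule had the opposite order, 5.16 with mouse Dux and 9.08 with human DUX4. The rest were Sh3bgrl2 at 0.58, Morc4 at -0.51 and Pdlim3 at -0.88.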

How the results depend on the processing

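The rule gave 57 members with a ratio limit of 3, 7 with 8, 36 with an offset of 0.25 CPM and 20 with an offset of 1 CPM. It gave 20 when the lowest induced library was set against the highest uninduced one. With TMM-scaled library sizes it gave 38, with median-of-ratios-scaled ones 41, and without the luciferase condition 41, each with all 31 members kept. Leaving out single libraries gave 29 to 34. Counts of members called kept within 1.5 times under each alternative, except that the 2 members lower in induced human DUX4 than induced luciferase became 1 with DESeq2 and 1 to 2 with single libraries left out, where Rora was the one lost. Leaving out single libraries gave 15 to 20 members with the larger mouse Dux response and 3 to 4 with the larger human DUX4 response. Library size alone moved the median of all genes in the difference of responses from 0.02 to -0.19, gave 15 and 4, put Hhip at -0.0303 and ended the Prkg1 call (edgeR adjusted p = 0.0725), as DESeq2 did (adjusted p = 0.066). Among members not called, leaving out 1 library turned the sign of Tmsb15b2 (range -2.64 to 1.51), Fcgbp (-1.19 to 0.11) and Myo1d (-0.16 to 0.0093), and the cause was not tested. Deviations of same-numbered libraries correlated at 0.219 (replicate 1), 0.105 and 0.0802 in the mouse Dux line and at -0.0306 to 0.0308 in the others. The main model did not pair cultures by replicate number. Whether mouse Dux replicate 1 shared a source in both states was not tested. A replicate block gave 16 and 3 for the responses, 10 and 11, 18 and 7, and 4 and 20 for the uninduced comparisons, and 28 and 3, and 28 and 2, for the induced ones, the counts without it. A longer promoter window was not run, as no genome was used here. Low depth limits Ceacam1, Clec10a, Fcgbp, Fgf1, Fgf15, Gal3st2, Olfm2, Pclo, Prkg1 and Tmsb15b2, with at most 8 counts in an uninduced factor group.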
